A study of Mus musculus with 21 samples.

Results

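The polo-like kinases Plk1, Plk2, Plk3 and Plk4 and the NIMA-related kinase Nek2 were followed in the mRNA of mouse oocytes that carried different doses of Kif11, the gene of a plus-end-directed spindle motor. The 5 genes were chosen by name, as kinases of centrosomes and spindle poles, out of 54232 genes counted, of which 54079 had a symbol. Earlier results of the same counts were known when they were chosen, so that their values are given as a description and the adjusted p-values, taken over all genes tested, are no independent evidence. Each of the 21 libraries held poly(A) RNA of 3 fully grown oocytes at the germinal vesicle stage, from hormone-primed females of 3 to 4 months on a C57BL/6 background. All groups carried at least 1 floxed (fl) Kif11 allele. The wt/fl oocytes (4 libraries) had a wild-type and a floxed allele and no Cre, and served as the control. The wt/fl Spo11-Cre oocytes (5 libraries) had the same alleles with a Cre that acts from early meiotic prophase, so that the floxed allele was lost in the germ line. The fl/del oocytes (4 libraries) had a floxed and a constitutively deleted (del) allele without Cre, and the fl/del Spo11-Cre oocytes (4 libraries) had these alleles with the Cre. The fl/fl oocytes had 2 floxed alleles and an oocyte driver of Cre, either Gdf9-Cre (2 libraries) or Zp3-Cre (2 libraries). The study's methods describe 17 libraries, the number of the first 4 groups, and state that a mouse gave 1 or 2 libraries, so that the libraries of a group are not all separate animals. The library names of the first 4 groups have 9 prefixes over the 17 libraries, of which 3 belong to wt/fl Spo11-Cre and 2 to each of the other 3 groups. Whether a prefix stands for a mouse is not stated, and if it does, each of these groups rests on 2 or 3 animals and the n given here, which counts libraries, is larger than the number of animals. For the fl/fl oocytes, genotype, driver and library set cannot be told apart.

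Polo-like kinases carry a C-terminal polo-box domain that docks the kinase on substrates already phosphorylated by other kinases. PLK1 drives entry into M-phase, centrosome maturation and bipolar spindle assembly, and PLK4 is the kinase that starts centriole duplication. NEK2 loosens the linker between centrosomes before mitosis. Fully grown mouse oocytes have no centrioles and build their spindle from many acentriolar microtubule organizing centres, on which PLK1 and PLK4 are known to act, and they are transcriptionally silent or nearly so, so that mRNA levels at this stage reflect what was made and stored during growth.

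The genes lie on 5 chromosomes of GRCm38. Plk1 (ENSMUSG00000030867) is at chr7:122159439-122169873 on the plus strand and Plk4 (ENSMUSG00000025758) at chr3:40800019-40816883 on the plus strand. Nek2 (ENSMUSG00000026622) is at chr1:191821444-191833050 on the plus strand. Plk2 (ENSMUSG00000021701) is at chr13:110395046-110400844 on the plus strand, and Plk3 (ENSMUSG00000028680) at chr4:117128655-117133963 on the minus strand. None is on chromosome 19, where Kif11 lies. Exons of 3 members overlap a gene of the opposite strand, and the strand setting of the counting is not given in the sources used here. Nek2 shares 298 exonic bases with the antisense gene Gm38037, which had 2.32 to 7.18 CPM (counts per 1000000 counted reads of a library) over the 21 libraries. Gm38037 had a median of 4.73 CPM in wt/fl and of 4.98 CPM in wt/fl Spo11-Cre, the pair of groups between which Nek2 differed. Plk1 shares 156 exonic bases with Gm44985, which had at most 0.152 CPM, and Plk3 shares 84 with Tctex1d4, which had at most 0.244 CPM. The processed pseudogene Plk-ps1 had at most 1.22 CPM.

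Stretches of 30 bases from the promoters are shown because Plk1, Plk4 and Nek2 were the members that were lower together in one comparison. Cell-cycle genes are often driven through a CCAAT box (CCAAT) with a CHR element (TTTGAA), and Plk2 is known to respond to stimulation, for which a CRE (TGACGTCA) is a usual element. The sequences are RefSeq promoters (GRCm38.p6), 5′ to 3′ on the gene's strand, with these motifs in capitals.
Plk1, chr7:122159405-122159434, plus strand: ttttaaatccccgcggCCAATcagcaacgc
Nek2, chr1:191821437-191821466, plus strand: gttttctcagCCAATcagagttgagatgca
Plk4, chr3:40799921-40799950, plus strand: cgtcaaacttaaaacccacttccggcctag
Plk2, chr13:110394972-110395001, plus strand: gcgctcgccgTGACGTCAcgaggccccgcc
The 3 motifs were searched on both strands of windows of 300 bases, 250 before and 50 after the RefSeq start. All 5 members had such a window. In Plk1 a CCAAT box began 14 bases before the start, and a CHR lay 31 bases after it. In Nek2 a CCAAT box began 26 bases before the start, with another 8 bases after it. These letters were not in the windows of Plk3 and Plk4. The CCAAT box was present in 37.4% of 32851 RefSeq promoters of the same length, the CHR in 17.9% and the CRE of Plk2, which began 62 bases before the start, in 1.79%. The matches describe letters and no binding was measured.

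The libraries held 7205010 to 18454549 counted reads, with the smallest in fl/del (replicate 3), and 16740 to 19444 genes with a count. The 12 oocyte markers, Gdf9 and Zp3 among them, were present in all 21 libraries. Of the 18 genes in a list for follicle cells (granulosa, cumulus and theca), the granulosa cell genes Foxl2 and Ptx3 were at 0 in all 21 libraries and Amhr2 at 0 in 20. Others of the list were present, with Kitl at a median of 3.36 CPM and Col4a1 at 1.95 CPM and neither at 0 in any library, and Fshr, Star and Cyp11a1 each at 0 in only 2 libraries. The summed level of that list was 54.5 to 94.1 CPM, of which Cyp19a1 held 46.5 to 80.5 CPM. Kif11 itself followed the labels in its group means. Counted over all exons, it was at 34.5 ± 8.46 CPM (SD, n = 4) in wt/fl, 24.6 ± 5.04 CPM (n = 5) in wt/fl Spo11-Cre, 11.9 ± 3.06 CPM (n = 4) in fl/del and 1.78 ± 0.685 CPM (n = 4) in fl/del Spo11-Cre. It was at 5.003 ± 0.153 CPM (n = 2) with Gdf9-Cre and at 6.11 ± 2.60 CPM (n = 2) with Zp3-Cre. In wt/fl Spo11-Cre only 2 of the 5 libraries had less Kif11 than every wt/fl library. Kif11 did not pass between these groups in edgeR's quasi-likelihood test (log2 fold change -0.47, SE 0.20, adjusted p = 0.237).

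The members differed widely in level. Between genes, levels were compared as TPM, which the authors scaled by transcript length. In wt/fl oocytes Plk1 had 307 ± 42.4 TPM (SD, n = 4), rank 547 of the 13842 genes with a mean of at least 1 TPM. Plk4 had 51.0 ± 4.34 TPM and Nek2 had 30.7 ± 2.26 TPM, ranks 2829 and 3878. The stress-responsive kinases Plk3 and Plk2 were low, at 4.81 ± 2.497 TPM and 1.26 ± 0.518 TPM. The order Plk1, Plk4, Nek2 was the same in each of the 21 libraries, since the lowest Plk1 level over libraries was 183 TPM against a highest Plk4 level of 57.5 TPM, and the lowest ratio of Plk4 to Nek2 TPM was 1.15. Plk3 was above Plk2 in mean TPM in all 6 groups, but single libraries of these genes overlapped. Plk1 held 77.6% of the summed TPM of the 5 members in wt/fl, Plk4 13.1% and Nek2 7.84%. The share of Plk1 was between 74.0% and 78.7% in the means of the other groups. The remaining polo-like kinase gene, Plk5, had a count of 0 in 19 of 21 libraries, which allows up to 0.416 CPM in the shallowest library, and a count of 2 in each of the other 2 libraries.

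**Figure D1:**
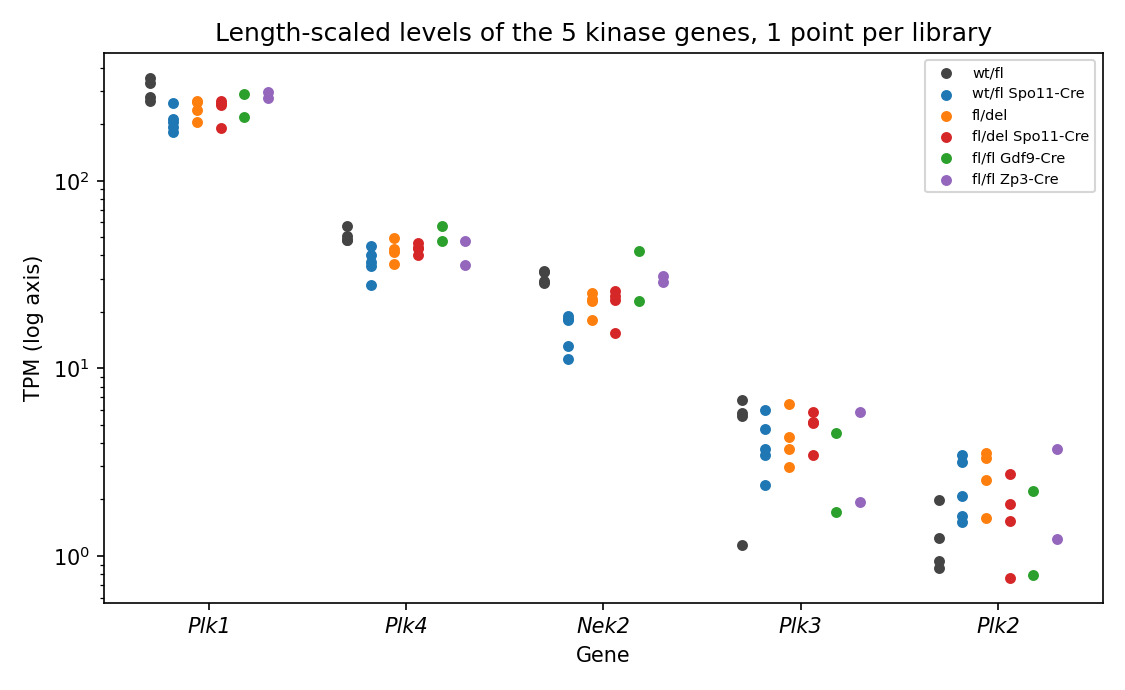
TPM of the 5 kinase genes on a log axis, with 1 point per library and the 6 groups side by side in colour. Plk1 lies above Plk4, Nek2 lies below Plk4, and Plk3 and Plk2 lie lowest, with the wt/fl means at 307, 51.0, 30.7, 4.81 and 1.26 TPM.

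Of the 3 abundant members, Nek2 differed most, relative to wt/fl, between the genotypes of the Spo11-Cre background. In the 4 wt/fl libraries Nek2 was at 60.3, 59.7, 53.2 and 52.9 CPM. With wt/fl Spo11-Cre it was at 33.8, 34.6, 24.7, 35.7 and 21.9 CPM. All 5 of these libraries were below every wt/fl library. In fl/del the Nek2 levels were 42.0, 43.6, 34.7 and 46.5 CPM, and in fl/del Spo11-Cre they were 43.1, 29.8, 45.3 and 48.1 CPM. All 8 were again below every wt/fl library, and they overlapped with each other and with wt/fl Spo11-Cre. The fl/fl libraries were not all below wt/fl. With Gdf9-Cre, Nek2 was at 75.8 CPM, above every wt/fl library, and at 44.3 CPM, below every one of them. With Zp3-Cre it was at 58.6 CPM, within the wt/fl range, and at 51.9 CPM, below it. These CPM were not scaled by TMM factors, with which the fits adjusted library sizes. The factors were 1.03 to 1.10 in the fl/fl libraries and 0.977 to 1.002 in wt/fl. Scaled by them, more fl/fl libraries would be below every wt/fl library. The Gdf9-Cre library with 75.8 CPM was also the one with the highest summed level of the follicle cell list, 94.1 CPM, and the highest mitochondrial share of counts, 0.510%. The part of these in the Nek2 level was not tested. Relative to the wt/fl mean, Nek2 was at 53.4% ± 11.2 (SD, n = 5) in wt/fl Spo11-Cre, 73.8% ± 8.89 (n = 4) in fl/del and 73.6% ± 14.3 (n = 4) in fl/del Spo11-Cre. CPM are shares of a library's reads, so that less mRNA of a gene and more RNA of other genes, also from other cells, cannot be told apart.

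Plk1, which is needed for M-phase entry, had the same order of means in the Spo11-Cre background, over a narrower range. Its wt/fl levels were 251, 294, 241 and 313 CPM. In wt/fl Spo11-Cre they were 235, 168, 195, 189 and 183 CPM. The highest of these 5 libraries was just below the lowest of wt/fl. Plk1 was at 239, 215, 193 and 238 CPM in fl/del, which also did not overlap with wt/fl in CPM. The margin was small. Scaled by TMM factors, fl/del replicate 1 (factor 0.968) would be above wt/fl replicate 3 (factor 0.977). In fl/del Spo11-Cre Plk1 was at 229.5, 179, 234 and 241 CPM, where 3 of 4 libraries were below every wt/fl library before such scaling. Levels of Plk1 with Gdf9-Cre were 254 and 206 CPM, and with Zp3-Cre 253 and 261 CPM. Of these 4 fl/fl libraries, 1 was below all of wt/fl in CPM. Scaled by TMM factors, more of them would be, and the Zp3-Cre mean was then 86.9% of wt/fl. As a share of the wt/fl mean, Plk1 was at 70.6% ± 9.15 (SD, n = 5) in wt/fl Spo11-Cre. The fl/del oocytes were at 80.5% ± 8.00 (n = 4) and 80.4% ± 10.3 (n = 4) without and with Spo11-Cre, and the fl/fl oocytes at 83.8% ± 12.3 (n = 2) with Gdf9-Cre and 93.4% ± 2.08 (n = 2) with Zp3-Cre.

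Plk4 showed the smallest spread of group means among these 3 genes in the Spo11-Cre background. The wt/fl libraries were at 142, 133, 163 and 133 CPM of Plk4, and those of wt/fl Spo11-Cre at 127, 115, 100.2, 106 and 82.0 CPM. These groups did not overlap. Plk4 levels in fl/del were 122, 139.7, 105 and 117 CPM, and 3 of the 4 libraries were below all wt/fl libraries. The fl/del Spo11-Cre libraries were close together at 123, 118, 132 and 123 CPM, all of them below wt/fl by a margin that was under 1 CPM for the highest. With Gdf9-Cre both libraries, at 158 and 141 CPM, were within the wt/fl range, and with Zp3-Cre both, at 102 and 129 CPM, were below it. In percent of the wt/fl mean, Plk4 was at 74.3% ± 11.7 (SD, n = 5) in wt/fl Spo11-Cre and at 84.8% ± 10.0 (n = 4) and 87.1% ± 3.99 (n = 4) in fl/del without and with this Cre. It was at 104.5% ± 8.37 (n = 2) with Gdf9-Cre and 81.1% ± 13.6 (n = 2) with Zp3-Cre.

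Neighbours in the order of group means rarely separated. For Plk1, none of the 5 pairs of neighbouring groups was free of overlap between libraries. For Plk4 only wt/fl and fl/del Spo11-Cre were, and for Nek2 only fl/fl Zp3-Cre and fl/del.

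**Figure D2:**
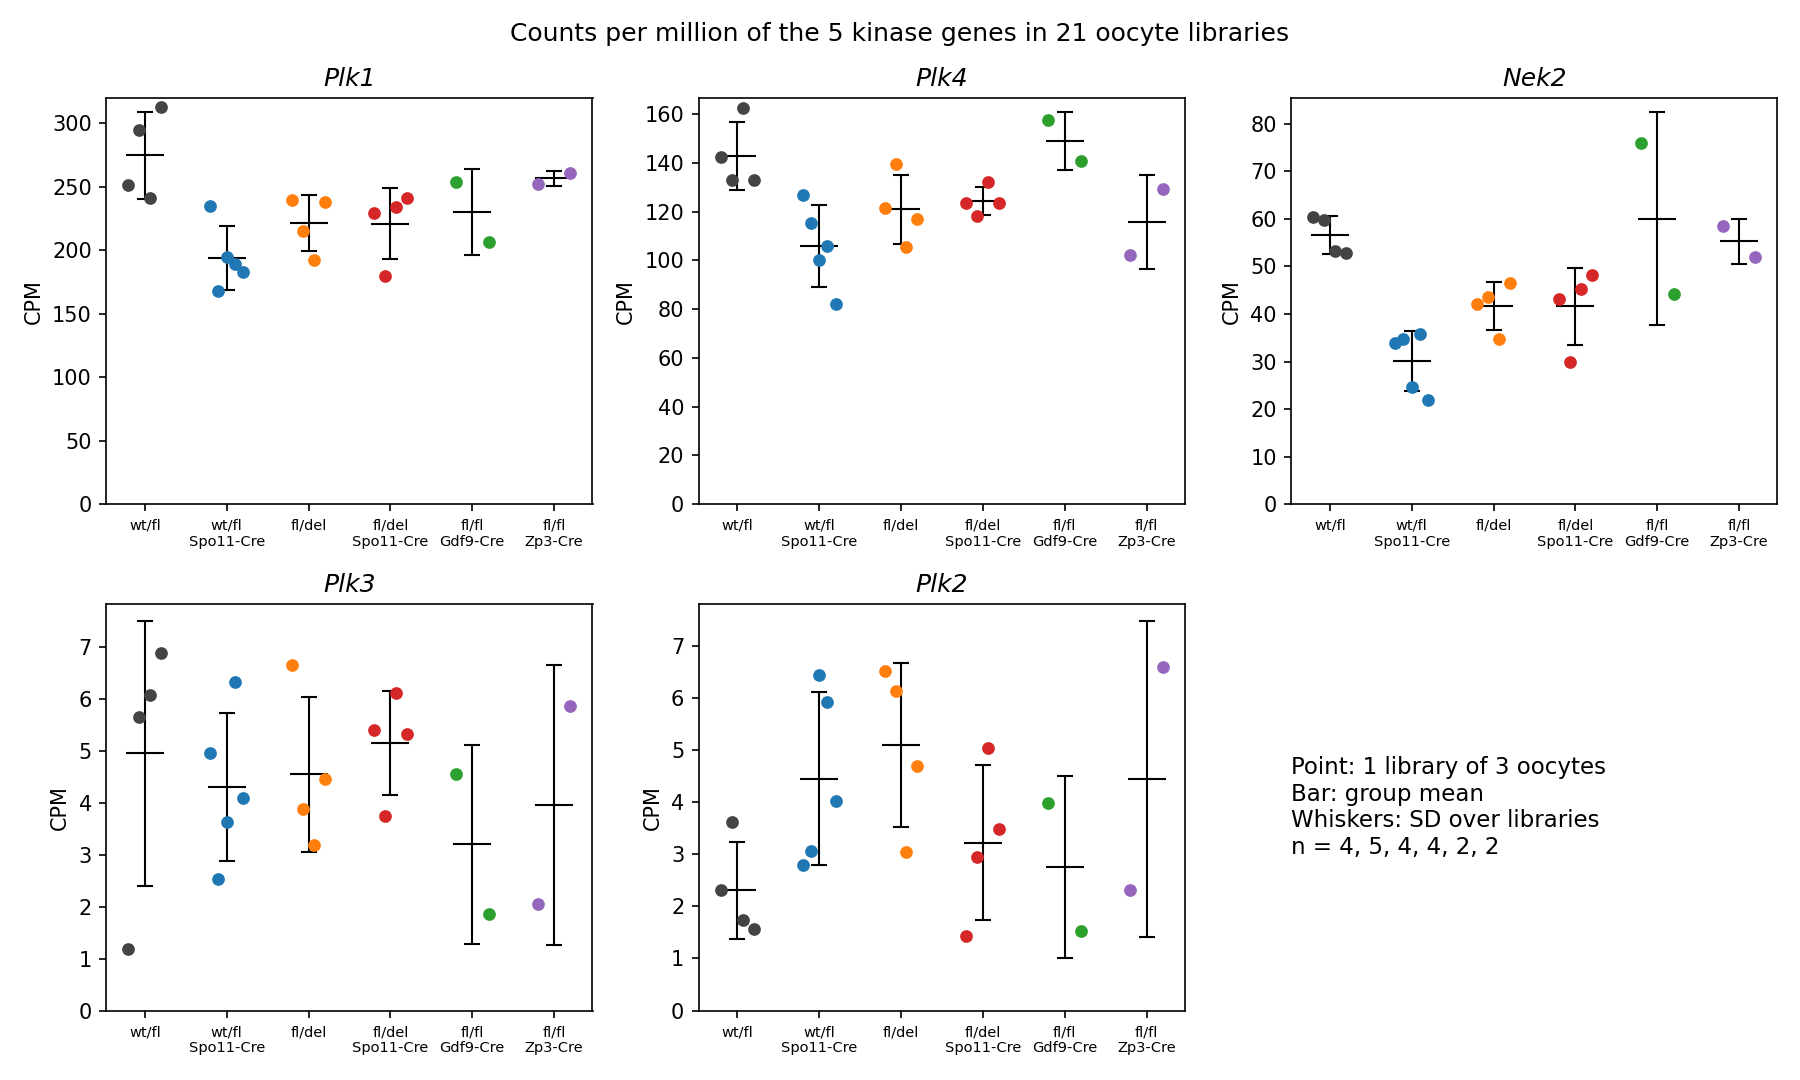
CPM of each kinase gene in each library (points) by genotype and Cre driver, with the group mean (bar) and SD (whiskers) and a linear axis from 0. For Nek2 the 13 points of wt/fl Spo11-Cre, fl/del and fl/del Spo11-Cre lie below the 4 wt/fl points, the lowest of which is 52.9 CPM, and for Plk2 and Plk3 the groups overlap.

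How often a gene has such a pattern was counted over the 22383 genes tested in the Spo11-Cre background. Every library of wt/fl Spo11-Cre was below every wt/fl library for 2.82% of genes, among them Plk1, Plk4 and Nek2. The same held for 1.77% of genes in fl/del, where it was seen for Plk1 and Nek2, and for 1.96% in fl/del Spo11-Cre, where it was seen for Plk4 and Nek2. All 13 libraries of these 3 genotypes were below every wt/fl library for 0.228% of genes, among the members for Nek2 alone. A gene at 0 in any wt/fl library cannot have such a pattern but is among the 22383. The shares among well-counted genes alone, to which Plk1, Plk4 and Nek2 belong, are therefore not given by these values. The patterns were counted in CPM without TMM factors, with which a small margin, as for Plk1 in fl/del, may not hold. The 3 comparisons share the wt/fl libraries and are not independent of each other.

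The stress-responsive members had few counts. Plk2 had 14 to 119 counts per library and Plk3 16 to 104, against 250 to 861 for Nek2, so that their levels are less precise. Plk2, known as a gene induced by serum and by neuronal activity, was at 2.31, 3.61, 1.74 and 1.56 CPM in wt/fl and at 6.52, 6.14, 3.05 and 4.69 CPM in fl/del. These groups overlapped, as 1 fl/del library was below the highest wt/fl library. Means of Plk2 in the other groups were 4.45 ± 1.66 CPM in wt/fl Spo11-Cre, 3.23 ± 1.49 CPM in fl/del Spo11-Cre, 2.76 ± 1.75 CPM with Gdf9-Cre and 4.45 ± 3.03 CPM with Zp3-Cre. Plk3, a kinase linked to stress responses, had group means between 3.20 CPM with Gdf9-Cre and 5.15 CPM in fl/del Spo11-Cre. Its wt/fl libraries ranged from 1.19 to 6.87 CPM, a range that holds all other libraries. For Plk2 and Plk3 every pair of neighbouring groups in the order of means overlapped.

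The wt/fl Spo11-Cre oocytes had lower Nek2, Plk1 and Plk4 than the wt/fl oocytes. These groups differ in the Cre and in the loss of the floxed allele, which cannot be told apart. In edgeR's quasi-likelihood test with Benjamini-Hochberg adjustment over all genes, Nek2 fell by 0.89 on the log2 scale (SE 0.14, adjusted p = 7.00e-05), Plk1 fell by 0.48 (SE 0.10, adjusted p = 0.00251) and Plk4 fell by 0.41 (SE 0.10, adjusted p = 0.0178). Plk2 had a log2 fold change of 0.98 (SE 0.41, adjusted p = 0.234) and Plk3 of -0.18 (SE 0.37, adjusted p = 0.895). The comparison called 491 of 22383 genes (2.19%), of which 297 were lower (1.33% of the genes tested), and 3 of the 5 members were among the latter. With the libraries of a shared name prefix summed to 1, the 3 genes also passed, at -0.96 for Nek2 (SE 0.15, adjusted p = 0.000210), -0.48 for Plk1 (SE 0.10, adjusted p = 0.00464) and -0.46 for Plk4 (SE 0.12, adjusted p = 0.0253). Nek2 and Plk1 passed without any single one of the 9 libraries, and Plk4 did not when wt/fl replicate 3 (adjusted p = 0.0868) or replicate 5 of wt/fl Spo11-Cre (adjusted p = 0.0899) was left out, or when all 21 libraries were fitted together (adjusted p = 0.0547). Other measures were set beside this comparison. The summed level of 12 immediate early and stress genes was 14.0 to 19.9 CPM in wt/fl and 18.2 to 26.8 CPM in wt/fl Spo11-Cre, ranges that overlapped. Hspa1b, Egr1 and Atf3 were the highest of them and none was at 0 throughout. Of these genes 11 were tested, and none passed in edgeR or DESeq2. An unadjusted p under 0.05 was seen for 1 of the 11, beside 15.0% of all genes tested, and 4 had a fold change below 0. The follicle cell list without Cyp19a1 summed to 8.80 ± 3.001 CPM in wt/fl and 8.87 ± 1.34 CPM in wt/fl Spo11-Cre. None of the 13 follicle cell genes tested passed in edgeR or DESeq2, and 6 had an unadjusted p under 0.05, beside 15.0% of all genes tested. Of these 6, Inha, Has2, Hsd17b1 and Cyp17a1 had a fold change below 0 and Inhba and Col4a1 one above 0. Of the 12 oocyte markers, 1 was higher and 2 were lower. The part of these measures in the members' levels was not tested.

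With a constitutive deletion in place of the Cre, no member passed. In fl/del against wt/fl Nek2 had a log2 fold change of -0.42 (SE 0.15, adjusted p = 0.472), Plk1 of -0.30 (SE 0.10, adjusted p = 0.444), Plk4 of -0.22 (SE 0.11, adjusted p = 0.585), Plk2 of 1.18 (SE 0.43, adjusted p = 0.502) and Plk3 of -0.10 (SE 0.39, adjusted p = 0.995). This comparison called only 5 genes, 0.0223% of those tested. An unadjusted p under 0.05 was seen for 4 of the 5 members, beside 8.52% of all genes tested, and DESeq2 called 0 of them after adjustment. In the fl/del Spo11-Cre oocytes, in which Kif11 was lowest, the values against wt/fl were -0.45 (SE 0.15, adjusted p = 0.232) for Nek2, -0.32 (SE 0.10, adjusted p = 0.205) for Plk1 and -0.20 (SE 0.11, adjusted p = 0.510) for Plk4. Plk2 had 0.48 (SE 0.43, adjusted p = 0.750) and Plk3 0.05 (SE 0.39, adjusted p = 0.998) there. That comparison called 44 genes, 0.197%, and none of the 5 members, of which 2 had an unadjusted p under 0.05, beside 10.4% of all genes, and 0 passed in DESeq2. The lowest means of Nek2, Plk1 and Plk4 were in wt/fl Spo11-Cre, and the lowest mean of Kif11 was in fl/del Spo11-Cre. No member passed between these groups, and a relation of the members to the level of Kif11 was not tested.

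**Figure D3:**
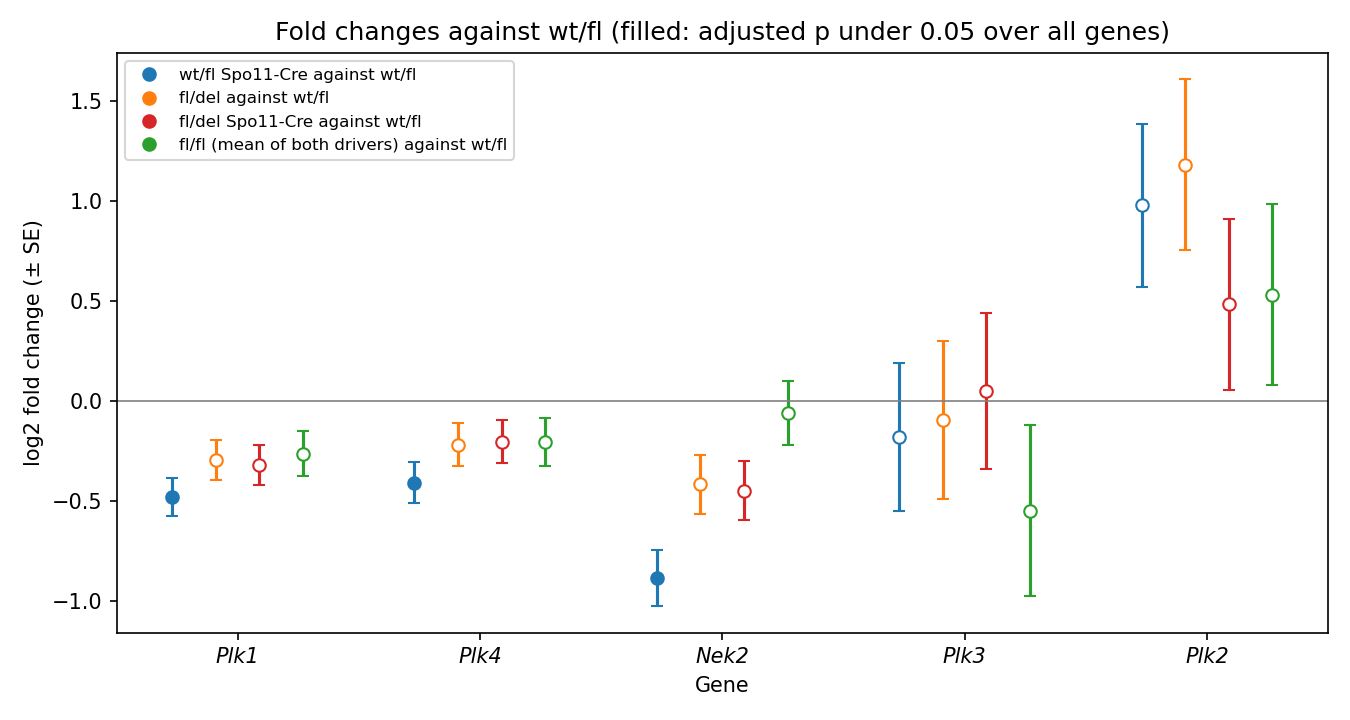
Log2 fold change of each kinase gene against wt/fl (points, with SE as whiskers) in 4 comparisons that share the wt/fl libraries, from edgeR fits over all genes. Filled points passed an adjusted p of 0.05 over all genes, which were Nek2 at -0.89, Plk1 at -0.48 and Plk4 at -0.41 in wt/fl Spo11-Cre.

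Direct comparisons between the genotypes with less Kif11 called none of the members in edgeR or DESeq2. Nek2 had a log2 fold change of 0.47 (SE 0.14, adjusted p = 0.228) in fl/del against wt/fl Spo11-Cre, and Plk1 and Plk4 had 0.18 and 0.19. That comparison called 0.201% of genes, and 1 member had an unadjusted p under 0.05, beside 9.24% of all genes. In fl/del Spo11-Cre against wt/fl Spo11-Cre Nek2 had 0.44 (SE 0.14, adjusted p = 0.645), with 0.0357% of genes called, and 1 member had an unadjusted p under 0.05, beside 7.11% of all genes. When fl/del Spo11-Cre was set against fl/del, Nek2, Plk1 and Plk4 had -0.03 (SE 0.15), -0.02 (SE 0.10) and 0.02 (SE 0.11). These groups differ in the Cre and in the loss of the floxed allele, with Kif11 at 1.78 against 11.9 CPM. The Cre and this loss cannot be told apart here. This last comparison called 0.241% of genes, and none of the members had an unadjusted p under 0.05, beside 8.32% of all genes.

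Whether the Cre went with a different change in the presence of the del allele was tested as an interaction in the same model. In wt/fl the Cre goes with loss of the floxed allele beside a wild-type allele, in fl/del beside a deleted allele. The Cre and these losses cannot be told apart in the interaction. The Nek2 interaction was 0.85 (log2, SE 0.20) with an adjusted p of 0.0652 in edgeR, which missed the threshold. It was 0.46 (SE 0.14, adjusted p = 0.197) for Plk1, 0.42 (SE 0.15, adjusted p = 0.282) for Plk4, -1.67 (SE 0.58, adjusted p = 0.278) for Plk2 and 0.32 (SE 0.54, adjusted p = 0.913) for Plk3. For 0.103% of all genes the interaction passed. Of the members 4 had an unadjusted p under 0.05, beside 10.3% of all genes. That of Nek2 passed in DESeq2 (adjusted p = 0.0193), in 4 of the 8 other alternatives, and when replicate 1 of wt/fl Spo11-Cre (adjusted p = 0.0370) or replicate 2 of fl/del Spo11-Cre (adjusted p = 0.0104) was left out. Its call thus depended on the processing while its value stayed between 0.77 and 0.98.

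In the fl/fl oocytes, taken as the mean of both drivers, Kif11 was low and none of the 5 members passed against wt/fl. Nek2 had a log2 fold change of -0.06 (SE 0.16, adjusted p = 0.944), Plk1 of -0.26 (SE 0.11, adjusted p = 0.242) and Plk4 of -0.21 (SE 0.12, adjusted p = 0.440). Plk2 and Plk3 had 0.53 (SE 0.45, adjusted p = 0.647) and -0.55 (SE 0.43, adjusted p = 0.605). The comparison called 647 of 23225 genes (2.79%), and of the members 1 had an unadjusted p under 0.05, beside 14.3% of all genes, and 0 passed in DESeq2. Whether the fl/fl and Spo11-Cre changes of Nek2 differ from each other was not tested.

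The other kinases of both families and the known partners of the members were described from lists of names. The NIMA-related kinases work at centrosomes, cilia and the mitotic spindle. Of 11 other family genes (Plk5 and Nek1 and Nek3 to Nek11), 10 were tested and none passed in any of the 8 comparisons in edgeR or DESeq2, with at most 1 at an unadjusted p under 0.05 in each. Over all genes 7.11% to 15.0% were at such a p in these comparisons. Between wt/fl Spo11-Cre and wt/fl the median log2 fold change of the family genes was -0.15, with 6 of 10 below 0, beside 0.03 over all genes. Nek1, a NIMA-related kinase, was the most abundant of them at 25.2 ± 0.553 TPM in wt/fl.

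PLK1 is activated by Aurora A with its cofactor Bora, and at M-phase entry it acts on the CDC25 phosphatases, the WEE1 family and EMI1. All 12 genes of this list were tested. In wt/fl Spo11-Cre 1 of them passed and was lower, with a median of -0.14 over the list, and 5 had an unadjusted p under 0.05, beside 15.0% of all genes. Of these 5, Cdc25a, Aurka and Fbxo43 had a fold change below 0 and Cdc25c and Cdk1 had a fold change above 0. The gene that passed was Cdc25a, a phosphatase that activates cyclin-dependent kinases. It fell from 52.8 ± 5.14 CPM in wt/fl to 35.9 ± 4.86 CPM, by 0.53 on the log2 scale (SE 0.13, adjusted p = 0.0100), with no overlap between the libraries. Aurka, the gene of Aurora A, had -0.22 (SE 0.08, adjusted p = 0.143) there and passed in DESeq2 only. In fl/fl against wt/fl 2 genes of the list were lower, beside 410 of 23225 genes tested. The median of the list was -0.08, beside -0.03 over all genes. Ccnb1, the gene of cyclin B1, fell by 0.47 (SE 0.11, adjusted p = 0.00704) and Aurka fell by 0.35 (SE 0.10, adjusted p = 0.0409). Cdc25b, another CDC25 phosphatase gene, passed there in DESeq2 only and had 0.59 in edgeR (SE 0.19, adjusted p = 0.0913), in the other direction. Ccnb1 was at 1718 and 2109 CPM with Gdf9-Cre and at 1507 and 2411 CPM with Zp3-Cre, against 2320 to 2709 CPM in wt/fl. Aurka was at 382 and 426 CPM with Gdf9-Cre and at 374 and 532 CPM with Zp3-Cre, against 491 to 559 CPM in wt/fl. For each gene 1 Zp3-Cre library was thus within the wt/fl range. Against wt/fl none of the 12 passed in either tool for fl/del, nor for fl/del Spo11-Cre, and each comparison had 1 gene with an unadjusted p under 0.05. Over all genes that share was 8.52% for fl/del and 10.4% for fl/del Spo11-Cre.

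PLK4 is recruited to centrioles by CEP152 and CEP192, binds STIL, and is degraded after it is bound by the ubiquitin ligase subunit BTRC. Of 11 partner genes, all tested, Btrc was lower in wt/fl Spo11-Cre, Nedd1 passed in DESeq2 only, and 3 had an unadjusted p under 0.05, beside 15.0% of all genes. Btrc fell from 509 ± 17.3 CPM in wt/fl to 404 ± 38.1 CPM, by 0.31 on the log2 scale (SE 0.08, adjusted p = 0.0276), and the median of the list was -0.12. The fl/fl oocytes also had lower Btrc, which fell by 0.49 (SE 0.11, adjusted p = 0.00671), and lower Nedd1, which encodes a factor that recruits the γ-tubulin ring complex and fell by 0.43 (SE 0.12, adjusted p = 0.0235). Over all genes 410 of 23225 were lower in fl/fl. Btrc was at 329 and 439 CPM with Gdf9-Cre and at 295 and 477 CPM with Zp3-Cre, against 490 to 532 CPM in wt/fl. Nedd1 was at 194 and 250.9 CPM with Gdf9-Cre and at 145 and 248 CPM with Zp3-Cre, against 250.8 to 299 CPM in wt/fl. For Nedd1 the higher Gdf9-Cre library was thus within the wt/fl range. In wt/fl Nedd1 was the most abundant gene of this list, at 160.2 ± 14.5 TPM, while the centriole duplication genes Stil, Sass6 and Cep152 were at 1.48, 3.73 and 3.86 TPM. In fl/del none of the 11 passed against wt/fl or had an unadjusted p under 0.05, beside 8.52% of all genes. In fl/del Spo11-Cre 3 had such a p, beside 10.4% of all genes, and Nedd1 passed in DESeq2 only.

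NEK2 acts on the centrosome linker proteins C-NAP1 (Cep250) and rootletin (Crocc), is regulated through the kinases MST1 and MST2 (Stk4 and Stk3) and protein phosphatase 1, and phosphorylates the kinetochore protein HEC1 (Ndc80). Of the 11 genes none passed in edgeR in the 4 comparisons against wt/fl, with 1 at an unadjusted p under 0.05 in each. In DESeq2 Ndc80 passed in wt/fl Spo11-Cre and in fl/del Spo11-Cre and Ppp1ca in fl/fl. The linker genes were low in wt/fl, with Cep250 at 1.23 ± 0.288 TPM and Crocc at 0 in 16 of 21 libraries. Ndc80, named after its values were seen, passed in fl/del Spo11-Cre against fl/del, with 153 ± 14.97 CPM against 207 ± 15.4 CPM and a log2 fold change of -0.46 (SE 0.10, adjusted p = 0.0143). The list's median in wt/fl Spo11-Cre was -0.18.

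**Figure D4:**
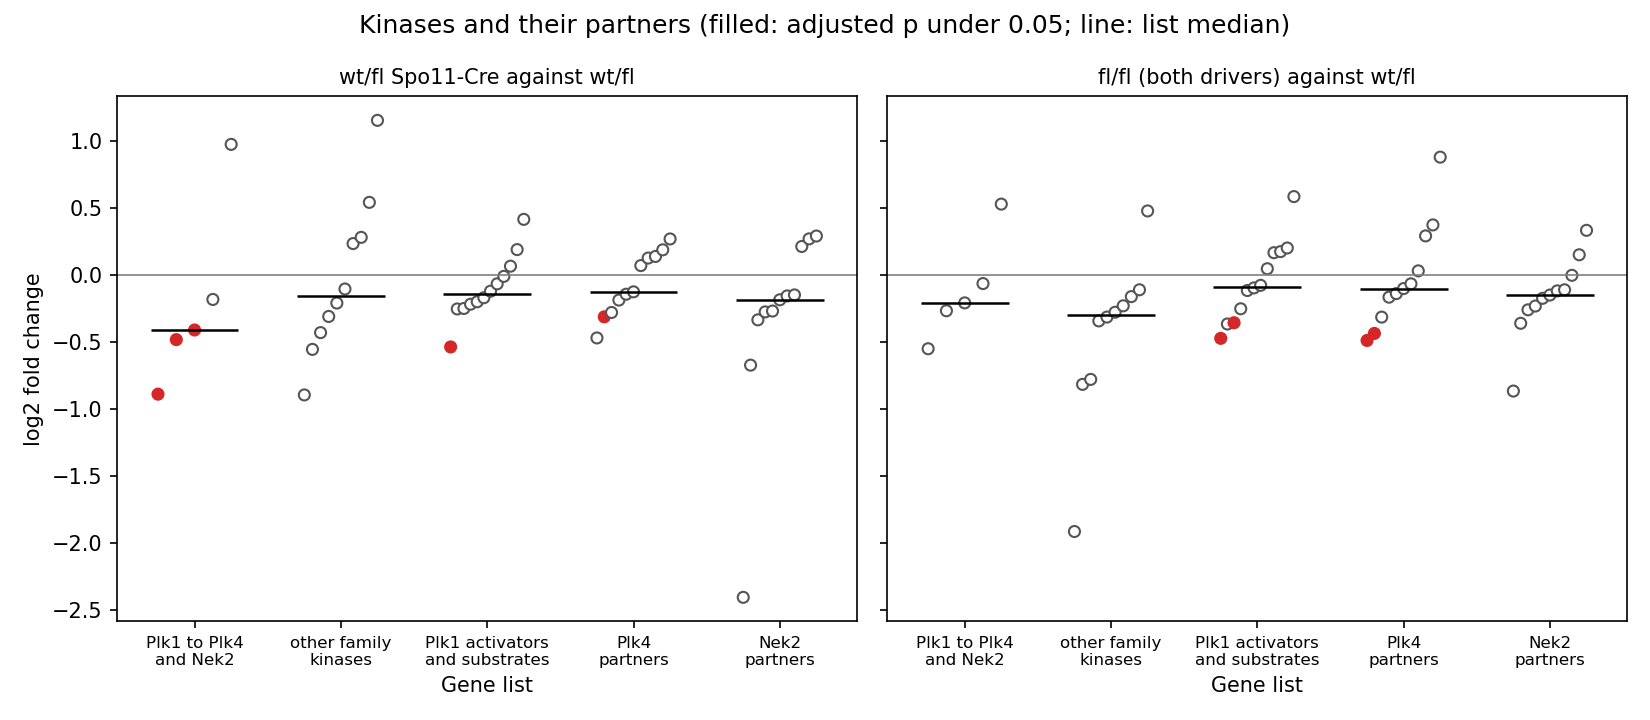
Log2 fold changes of the genes in each list (points) and their median (line), with wt/fl Spo11-Cre compared to wt/fl (left) and fl/fl with both drivers against wt/fl (right), which share the wt/fl libraries. Filled points passed an adjusted p of 0.05 over all genes, which were 3 members, 1 Plk1 activator or substrate and 1 Plk4 partner on the left, and 0 members, 2 and 2 on the right.

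Levels of the members were also compared with each other and with the 7755 genes of at least 10 CPM on average, by Spearman's rho of CPM over the 17 libraries of the Spo11-Cre background. These values are descriptions: the genes share libraries and library totals, and the groups differ in mean. The genes named as most alike are the highest of the 7755, for which no chance level was computed. Plk1 and Nek2 had a rho of 0.84, Plk4 and Nek2 of 0.78 and Plk1 and Plk4 of 0.70, and over all 21 libraries 0.85, 0.66 and 0.54. After each group's mean was subtracted, Pearson's r was 0.48, 0.61 and 0.17, so that Plk1 and Plk4 hardly varied together within groups. Many other genes were more alike by rho over the 17 libraries. For Plk1, Nek2 ranked 99 and Plk4 ranked 479 in likeness. For Nek2, Plk1 ranked 38 and Plk4 146, and for Plk4, Nek2 ranked 51 and Plk1 181. Plk2 had a rho of -0.25 with Plk1, -0.41 with Plk4 and -0.28 with Nek2. The genes most like Nek2 were Abhd13 (rho 0.90), Kif22, which encodes a chromosome arm kinesin (0.89), and Mcm7, a subunit of the replicative helicase (0.89), with 0.86, 0.50 and 0.78 over 21 libraries. Plk1 was closest to Stx5a, Phc2 and Map2k1 (0.93 each), which had 0.70, 0.90 and 0.94 over 21 libraries. Those most like Plk4 were Kat8, Dcp1a (0.89 each) and Rnf181 (0.88), and with the fl/fl libraries included they were at 0.46, 0.66 and 0.65. For Plk3 the highest values were 0.80 for Slc35b2, 0.77 for Crkl and 0.76 for Slc9a3r1 (0.50, 0.41 and 0.60 over 21 libraries). Plk2 had 0.75 with Lyplal1 and 0.74 with Rnf17 and Cul4b (0.71, 0.64 and 0.72 over 21 libraries). The likeness of Kif22, Kat8, Slc35b2 and Crkl was thus much lower once the fl/fl libraries were included.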

How the data were processed

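Poly(A) RNA of oocytes was amplified with SMART-Seq v4 (13 PCR cycles) and sequenced as paired reads of 150 bp. After trimming by fastp and alignment to GRCm38 by HISAT2 2.2.1, the authors deposited whole-number counts per gene from featureCounts 2.0.3 (Ensembl 93). The authors also deposited TPM values, by a method not given in the sources used here. Tables with Kif11 counted over exon 1 or exon 22 alone served as alternatives. All-exon counts of the members were 1.87 to 1.97 times those of the exon 22 table.

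The members and gene lists were chosen with earlier results of these data known. CPM were counts per 1000000 counts of a library. Genes counted in 3 or more libraries were fitted with edgeR 4.0.16 (R 4.3.3, TMM, quasi-likelihood test, Benjamini-Hochberg over all genes), in 17 libraries for the Spo11-Cre background and in 21 for fl/fl. DESeq2 1.42.0, RLE factors, other filters, other tables and library sets, a replicate block and leaving out each library were alternatives. P-values measure the spread between libraries, some of which share a mouse. The members were named in every comparison, and of each partner list up to 2 genes per direction with an adjusted p under 0.05 against wt/fl. Ddit3 was left out of the stress list because its symbol had 2 identifiers. The code was tested on simulated data.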

Additional observations from a re-analysis of the deposited data

How the results depend on the processing

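Nek2 and Plk1 were lower in wt/fl Spo11-Cre against wt/fl in all 10 other processing alternatives and in all 9 fits without a library, with adjusted p-values of Nek2 up to 0.00107 and of Plk1 up to 0.0257. Plk4 passed in 9 of 10 alternatives and lost its call with all 21 libraries in the fit (log2 fold change -0.41, adjusted p = 0.0547). Without single libraries it ranged from -0.47 to -0.33 and passed in 7 of 9 fits. The Nek2 interaction was gained in DESeq2 (0.86, adjusted p = 0.0193), without a filter on low counts (0.85, adjusted p = 0.00691), in the exon 22 and exon 1 tables (0.85, adjusted p = 0.0449 and 0.0450) and with the replicate number as a block (0.78, adjusted p = 0.0329), and ranged from 0.77 to 0.98 without single libraries. The block also brought Plk1 in fl/del Spo11-Cre against wt/fl past the threshold (-0.32, adjusted p = 0.0450). Replicate numbers did not pair the samples: deviations of same-numbered libraries of different groups correlated at -0.164 to 0.157. The cause of these changes was not tested.

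Counts of genes called depended more on the processing. With wt/fl Spo11-Cre against wt/fl they were 931 in DESeq2, 742 without a filter and 252 with 21 libraries, and 179 to 575 without single libraries, with 179 without wt/fl replicate 2, 266 without wt/fl replicate 4 and 263 without wt/fl Spo11-Cre replicate 5. For fl/del against wt/fl they were 25 in DESeq2, 80 without a filter, 2 with filterByExpr, 96 with the block and 1 to 18 without single libraries. With fl/del Spo11-Cre against wt/fl they were 166, 185, 29 and 230 in that order, 83 and 82 in the exon 22 and exon 1 tables and 30 to 71 without single libraries. For fl/del against wt/fl Spo11-Cre they were 93, 116, 25 and 99, 20 with 21 libraries and 20 to 50 without single libraries. With fl/del Spo11-Cre against wt/fl Spo11-Cre they were 14, 39, 4 and 29, 5 with 21 libraries and 3 to 12 without single libraries. With fl/del Spo11-Cre against fl/del they were 90 in DESeq2, 134 without a filter, 143 with the block and 37 to 60 without single libraries. For the interaction they were 95, 138, 2 with filterByExpr and 96 with the block, 4 with 21 libraries, 42 in each of both exon tables, 11 with libraries of a shared name prefix summed and 4 to 60 without single libraries. For fl/fl they were 1109 in DESeq2, 238 with only the compared groups and 303 to 1353 without single libraries.

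Of the members, 17 of the fits without a library changed sign, all at values that passed in none. Without single libraries Plk3 ranged from -0.50 to 0.026 in wt/fl Spo11-Cre, -0.42 to 0.11 in fl/del and -0.28 to 0.25 in fl/del Spo11-Cre against wt/fl, and from -0.17 to 0.26 in fl/del against wt/fl Spo11-Cre. In fl/del Spo11-Cre against fl/del the ranges were -0.089 to 0.060 for Plk1, -0.049 to 0.11 for Plk4 and -0.11 to 0.097 for Nek2, and Nek2 in fl/fl ranged from -0.27 to 0.11. The Plk1 level with Zp3-Cre was 86.9% of wt/fl with TMM library sizes and 88.2% with RLE ones, in place of 93.4%. The counts of Plk2 and Plk3 limit what can be seen of them.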
